A study of Caenorhabditis elegans with 12 samples.

Results

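The genes described here are 10 structural genes of the nematode sarcomere, the contractile unit of muscle. They were chosen by name, as the rows of the deposited count table named unc-54, myo-1, myo-2, myo-3, unc-15, mlc-1, mlc-2, mlc-3, lev-11 and act-4, and all 10 were found among its 46726 genes. The study sequenced mRNA of whole adult Caenorhabditis elegans at day 7 and compared 6 libraries of xpf-1 mutants with 6 libraries of wild type. The mutants were strain TG1660 with the allele xpf-1(tm2842), and the wild type was the laboratory strain N2. XPF-1 is a nuclease subunit that helps to cut out damaged stretches of DNA. Both groups were pools of age-synchronized worms raised on NGM agar with Escherichia coli OP50, so every library mixes the RNA of all tissues.

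In striated muscle of C. elegans, thick filaments of myosin slide along thin filaments of actin. Each myosin is a pair of heavy chains carrying regulatory and essential light chains, the thick filament is built on a core of paramyosin, and tropomyosin with troponin on the thin filament lets calcium switch contraction on. Body wall muscle uses the heavy chains UNC-54 and MYO-3, and the pumping muscle of the pharynx uses MYO-1 and MYO-2.

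Between 18407182 and 22817135 counts were assigned to genes in a library, and 14248 genes had enough counts to be tested. The transcript of the deleted gene separated the groups, at 11.7 ± 1.57 CPM in xpf-1 and 73.0 ± 7.19 CPM in N2 (mean ± SD, n = 6 each), where CPM is a gene's counts scaled by the TMM-adjusted library total. The library titled N2 replicate 6 carries a mutant genotype label beside an N2 strain label. Its title and strain put it in N2, and with 68.8 CPM of xpf-1 it lay within the N2 range of 63.9 to 81.1 CPM. The labels speak of biological triplicates, there were 6 libraries per group, and whether these came from 6 separate cultures is not stated. The p-values thus cover only the variation among libraries, some of which may be technical. Of all genes tested, 30.1% were called higher and 29.6% lower in xpf-1 at an adjusted p under 0.05, and the median log2 fold change was 0.03.

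In xpf-1 worms 6 of the 10 genes were lower than in N2, 2 were higher and 2 did not pass the test. The 6 that fell were the major body wall heavy chain unc-54, paramyosin unc-15, the light chains mlc-1, mlc-2 and mlc-3, and tropomyosin lev-11. The 2 that rose were the minor body wall heavy chain myo-3 and the pharyngeal heavy chain myo-2, and the muscle actin act-4 and the pharyngeal heavy chain myo-1 did not pass. The 10 genes summed to 1129 ± 65.2 CPM in xpf-1 and 1310 ± 91.3 CPM in N2 (SD, n = 6 each), with a range of 1037 to 1235 CPM in xpf-1 and of 1202 to 1422 CPM in N2. The 10 genes did not all move the same way. In RNA from whole animals, the number of muscle cells, their RNA per cell and the share of RNA from other tissues cannot be told apart. All 10 genes entered the fit, myo-1 and myo-2 with few reads, and their median log2 fold change was -0.20.

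**Figure D1:**
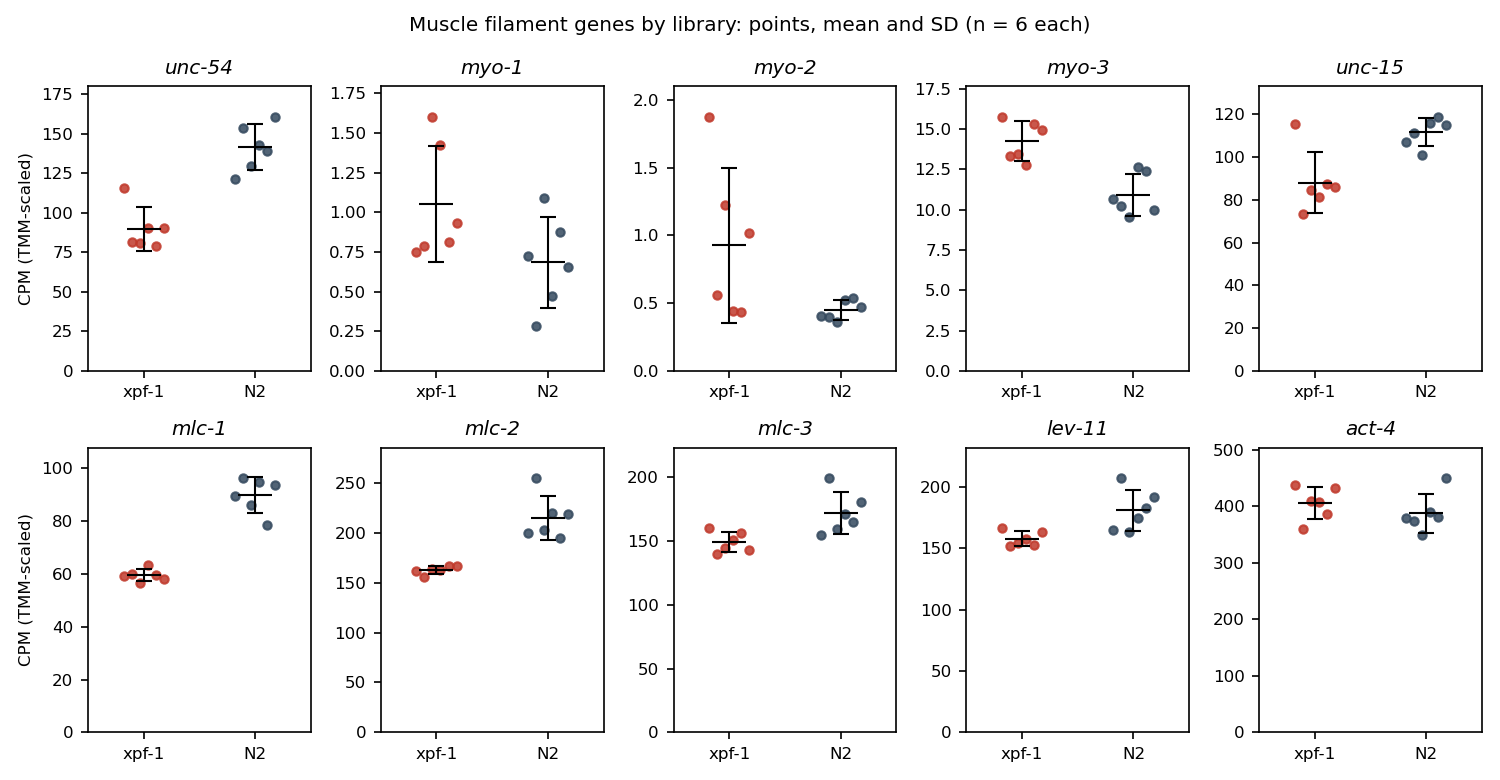
TMM-scaled CPM of each of the 10 genes in every library, with xpf-1 left of N2 in each panel, 1 point per library and bars for the mean ± SD of 6 libraries. The groups do not overlap for unc-54, mlc-1 and mlc-2, which are lower in xpf-1, nor for myo-3, which is higher.

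unc-54 encodes myosin heavy chain B, the most abundant heavy chain of body wall muscle, and lies on chromosome I at 14855899 to 14863540, minus strand (WBcel235, as are all coordinates here). In xpf-1 libraries it ran from 79.0 CPM through a median of 85.7 CPM to 115.8 CPM. In N2 libraries it ran from 121.5 CPM through a median of 141.1 CPM to 160.8 CPM. Every xpf-1 library lay below every N2 library, and the highest xpf-1 library, replicate 1, stood well above the other 5, which reached 90.4 CPM at most. The mean was 89.6 ± 13.7 CPM in xpf-1 and 141.3 ± 14.6 CPM in N2 (SD, n = 6 each), so that the mutant held 63.4% of the N2 level. The log2 fold change was -0.66 ± 0.09 (SE, 95% interval -0.86 to -0.45), and its adjusted p was 3.05e-05 (quasi-likelihood test of edgeR, Benjamini-Hochberg adjustment over all tested genes). The same test underlies every adjusted p given for a gene below.

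myo-3 encodes myosin heavy chain A, which occupies the middle of the body wall thick filament and is needed to start its assembly. It lies on chromosome V at 12226816 to 12234343, minus strand. It went the other way. Its level was 12.8 CPM at the lowest, 14.2 CPM at the median and 15.8 CPM at the highest in xpf-1, against 9.58 CPM, 10.46 CPM and 12.6 CPM in N2. The ranges did not overlap, although the lowest xpf-1 library and the highest N2 library lay close together. The mean was 14.3 ± 1.23 CPM in xpf-1 and 10.9 ± 1.30 CPM in N2 (SD, n = 6 each), a log2 fold change of 0.39 ± 0.09 (SE) with an adjusted p of 0.000483. Among all tested genes, 17.9% had non-overlapping ranges with xpf-1 higher and 20.3% with xpf-1 lower. Of the 10 sarcomere genes, 1 had such ranges with xpf-1 higher and 3 with xpf-1 lower.

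The call of myo-3 was lost when a trend with gene length was removed. Long genes as a class were higher in xpf-1. Among tested genes of 5000 to 8000 bases the median log2 fold change was 0.36, 62.1% were called higher and 7.66% lower, while the 4962 genes under 1000 bases had a median of -0.04. With a length trend fitted and removed in each library, myo-3 (6105 bases) had a log2 fold change of 0.04 and an adjusted p of 0.697. On the same scale unc-54 (6264 bases) had -1.02 with an adjusted p of 3.32e-07. Removing the trend therefore took away the call of the one and enlarged the difference of the other, and the origin of the trend was not tested. On that scale 29.3% of all tested genes were higher in xpf-1 and 30.7% lower. Of the 10 sarcomere genes, none was higher by adjusted p or by an unadjusted p under 0.05 in edgeR, and the same 6 were lower, with a median of -0.25.

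**Figure D2:**
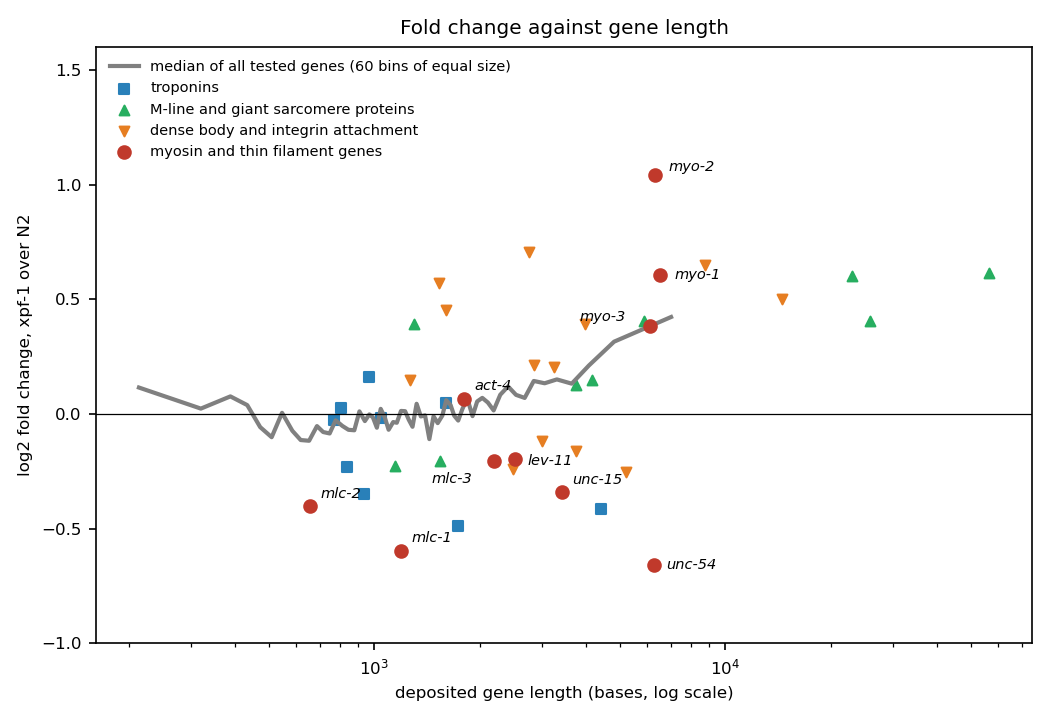
Log2 fold change (xpf-1 over N2) against the deposited gene length in bases on a log axis. A grey line gives the median of the 14248 tested genes in 60 bins of equal size. The 10 sarcomere genes are labelled points. Coloured markers show the tested troponin genes, M-line and giant sarcomere genes, and dense body and integrin attachment genes. The 4 heavy chain genes have lengths of 6105 to 6504 bases, where the fitted length trend (not drawn) stands between 0.34 and 0.36. The point of unc-54 lies far below that trend.

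Because myo-3 and unc-54 have nearly the same length and are read out of the same library, their ratio depends neither on the scaling between libraries nor much on the length trend. In reads per kilobase, myo-3 was 16.4% of unc-54 in xpf-1 and 7.92% in N2 (geometric means). The ratio was between 13.98% and 19.9% in the 6 xpf-1 libraries and between 6.37% and 9.16% in the 6 N2 libraries, with a gap between the groups. The log2 difference was 1.05, a 2.08-fold ratio, with p = 0.00216 in a two-sided exact permutation test over the 12 libraries. That is the smallest p this design allows, and it was 0.00361 after Benjamini-Hochberg adjustment over the 5 ratios examined.

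The pharyngeal heavy chains were close to the limit of detection. myo-2, on chromosome X at 12468061 to 12475341, plus strand, had 8 to 40 reads in an xpf-1 library and 7 to 11 reads in an N2 library. Its level was 0.435 CPM at the lowest, 0.788 CPM at the median and 1.88 CPM at the highest in xpf-1, and 0.364 CPM, 0.439 CPM and 0.536 CPM in N2. The xpf-1 libraries spread far more widely than the N2 libraries, and their lower values lay inside the N2 range. The log2 fold change was 1.04 ± 0.36 (SE, 95% interval 0.31 to 1.77) with an adjusted p of 0.0133. That call rested on xpf-1 replicate 1, the one with 40 reads: without it the log2 fold change was 0.72 with an adjusted p of 0.0868. In replicates 1 to 3 alone the log2 fold change was 1.63 (adjusted p = 0.011), and in replicates 4 to 6 alone it was 0.34 (adjusted p = 0.617). With the length trend removed the log2 fold change was 0.66 with an adjusted p of 0.0956.

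myo-1, on chromosome I at 7258921 to 7267079, minus strand, had 15 to 34 reads in an xpf-1 library and 5 to 21 in an N2 library. It was 0.751, 0.874 and 1.604 CPM in xpf-1 and 0.283, 0.691 and 1.09 CPM in N2 at the lowest, the median and the highest, and the groups overlapped. Its log2 fold change of 0.61 ± 0.31 (SE, 95% interval -0.03 to 1.247) did not pass, with an adjusted p of 0.0951, and at this depth the interval leaves a wide range of differences. Without N2 replicate 3 its log2 fold change was 0.78 with an adjusted p of 0.0446. The ratio of myo-2 to myo-1 differed by 0.16 on the log2 scale (exact permutation p = 0.786, also 0.786 after adjustment over 5 ratios). Both pharyngeal genes lay below myo-3 and far below unc-54 in every library.

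unc-15 encodes paramyosin, the rod protein of the thick filament core, on chromosome I at 7376604 to 7383197, minus strand. It ranged from 73.3 CPM through a median of 85.4 CPM to 115.3 CPM in xpf-1, and from 101.0 CPM through 113.2 CPM to 118.9 CPM in N2. Again xpf-1 replicate 1 stood apart from the other 5 xpf-1 libraries, which reached 87.4 CPM at most, and it alone lay within the N2 range. The mean was 88.0 ± 14.3 CPM in xpf-1 and 111.5 ± 6.64 CPM in N2 (SD, n = 6 each), a log2 fold change of -0.34 ± 0.08 (SE) with an adjusted p of 0.00193. unc-15 fell less than unc-54: the ratio of unc-15 to unc-54 was 1.24-fold higher in xpf-1 (log2 difference 0.31, exact permutation p = 0.00216, 0.00361 after adjustment), and the groups did not overlap in it. The unc-15 message is shorter than that of unc-54, and the fitted length trend was 0.14 at unc-15 and 0.35 at unc-54. With that trend removed, unc-15 had a log2 fold change of -0.49 (adjusted p = 8.11e-06) and unc-54 of -1.02 (adjusted p = 3.32e-07). The part of the trend in the ratio was not tested.

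The light chain genes mlc-1 and mlc-2 encode regulatory light chains and lie head to head on chromosome X, their starts 2573 bases apart, mlc-1 at 17459160 to 17460767 on the plus strand and mlc-2 at 17455779 to 17456586 on the minus strand. mlc-1 had 56.5 CPM at the lowest, 59.5 CPM at the median and 63.3 CPM at the highest in xpf-1, against 78.5, 91.6 and 96.3 CPM in N2. The 6 mutant libraries lay within a narrow band, and the whole band was below the lowest N2 library. mlc-1 averaged 59.5 ± 2.28 CPM in xpf-1 and 89.9 ± 6.70 CPM in N2 (SD, n = 6 each), a log2 fold change of -0.60 ± 0.05 (SE) with an adjusted p of 4.34e-11, the smallest of the 10 genes.

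mlc-2 had 155.2 CPM at the lowest, 163.0 CPM at the median and 167.1 CPM at the highest in xpf-1, and 195.1, 210.5 and 254.8 CPM in N2. The groups did not overlap, and the highest N2 library, replicate 2, stood above the rest of its group. mlc-2 averaged 162.8 ± 4.27 CPM in xpf-1 and 215.1 ± 21.9 CPM in N2 (SD, n = 6 each), a log2 fold change of -0.40 ± 0.05 (SE) with an adjusted p of 7.43e-08. Its deposited span overlaps 78 bases of the opposite-strand gene C36E6.2, which had 4506 reads in xpf-1 and 3690 in N2, while mlc-2 itself had 20568 reads in xpf-1 and 25651 in N2, and no source used here says whether counting used strand. mlc-1 and mlc-2 encode near-identical proteins, so a read in a shared stretch could be given to either, and their sum was 222.2 ± 4.27 CPM in xpf-1 and 304.9 ± 27.4 CPM in N2 (SD, n = 6 each). Of the pair, mlc-1 fell further: the ratio of mlc-1 to mlc-2 differed by -0.20 on the log2 scale (exact permutation p = 0.00649, 0.00812 after adjustment), and the groups overlapped in it.

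mlc-3 encodes the essential light chain, which steadies the lever arm of the myosin head, on chromosome III at 5565025 to 5567384, plus strand. It had 139.8 CPM at the lowest, 147.8 CPM at the median and 160.0 CPM at the highest in xpf-1, against 154.4, 168.1 and 199.2 CPM in N2. The groups overlapped at their edges. It averaged 149.0 ± 7.92 CPM in xpf-1 and 171.5 ± 16.4 CPM in N2 (SD, n = 6 each), a log2 fold change of -0.20 ± 0.05 (SE) with an adjusted p of 0.00185.

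lev-11 encodes tropomyosin, the coiled coil that lies along actin, on chromosome I at 14620759 to 14631254, minus strand. The annotation lists 20 transcripts of the gene, and the deposited count sums them, so muscle and other isoforms were not separated. It had 152.1 CPM at the lowest, 156.0 CPM at the median and 166.7 CPM at the highest in xpf-1, against 163.4, 178.6 and 207.1 CPM in N2, with an overlap at the edges. The log2 fold change was -0.20 ± 0.05 (SE) with an adjusted p of 0.0018, and the adjusted p was 0.0517 when libraries were scaled by their upper quartile. Against unc-54, the ratio of lev-11 was 1.39-fold higher in xpf-1 (log2 difference 0.47, exact permutation p = 0.00216, 0.00361 after adjustment over 5 ratios), with no overlap of the groups.

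act-4 encodes an actin of body wall and other muscles, on chromosome X at 4960553 to 4964416, plus strand, and held the highest CPM of the 10 genes. It had 361.0 CPM at the lowest, 409.1 CPM at the median and 437.9 CPM at the highest in xpf-1, and 349.1, 380.7 and 450.4 CPM in N2. The groups overlapped over nearly their whole range. Its log2 fold change was 0.07 ± 0.06 (SE, 95% interval -0.05 to 0.18) with an adjusted p of 0.313. Scaled by library totals alone it was 0.14 with an adjusted p of 0.0383, and by the upper quartile 0.14 with 0.0296.

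Actin genes have near-identical coding sequences, and no source used here says how reads that fit several of them were counted. The sum of act-1, act-2, act-3 and act-4 was 1277 ± 79.3 CPM in xpf-1 and 1340 ± 87.3 CPM in N2 (SD, n = 6 each), with overlapping ranges of 1161 to 1380 CPM in xpf-1 and 1237 to 1479 CPM in N2. act-1 had a log2 fold change of 0.00 (adjusted p = 0.973). act-2 and act-3 fell by 0.14 each (adjusted p = 0.0245 and 0.0315), calls that were lost with library totals (0.276 and 0.278) and with upper quartile scaling (0.324 and 0.321).

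**Figure D3:**
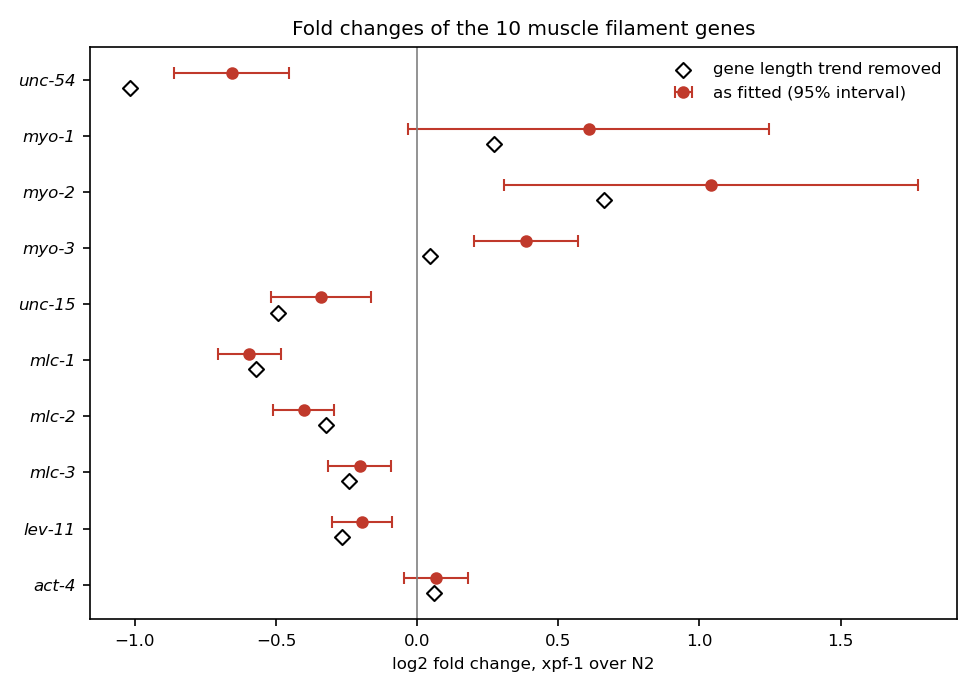
Log2 fold change (xpf-1 over N2) of each of the 10 genes, from the TMM-scaled fit with its 95% interval. Diamonds without an interval give the fit with the gene-length trend removed. Between the fits myo-3 moves from 0.39 to 0.04 and unc-54 from -0.66 to -1.02, while the light chains and act-4 move little.

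No gene of the 10 passed a test against a fold of 1.5. In that test of edgeR none had an adjusted p under 0.05 and only myo-2 had an unadjusted p under 0.05, where 11.5% of all tested genes had an adjusted p under 0.05.

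**Figure D4:**
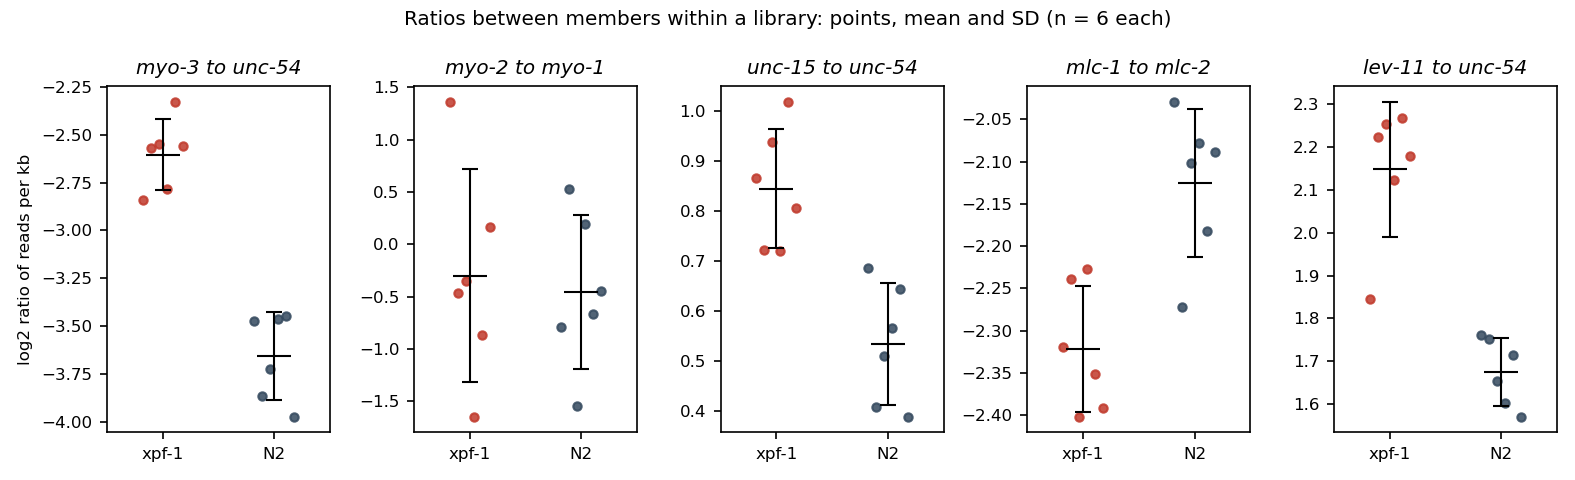
Log2 ratio of reads per kilobase for 5 pairs of genes within each library, xpf-1 left of N2, 1 point per library and bars for the mean ± SD of 6 libraries. The ratios of myo-3, unc-15 and lev-11 to unc-54 separate the groups without overlap, mlc-1 to mlc-2 is lower in xpf-1 with overlap, and myo-2 to myo-1 is widely scattered in both groups.

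Levels were compared between genes per kilobase of deposited gene length. That length runs past the longest annotated transcript for mlc-3 (2190 against 993 bases) and lev-11 (2510 against 1536 bases), so their values per kilobase depend on it. In xpf-1 it ran mlc-2 (249 ± 6.53 CPM per kilobase), act-4 (225 ± 15.9), mlc-3 (68.04 ± 3.62), lev-11 (62.8 ± 2.42), mlc-1 (49.8 ± 1.91), unc-15 (25.7 ± 4.17), unc-54 (14.3 ± 2.19), myo-3 (2.34 ± 0.20), myo-1 (0.162 ± 0.056) and myo-2 (0.146 ± 0.090). The neighbours mlc-2 and act-4, mlc-3 and lev-11, and myo-1 and myo-2 overlapped in xpf-1. In N2 mlc-2 stood at 329 ± 33.4 CPM per kilobase, above act-4 at 215 ± 18.7 with no overlap. There mlc-3 (78.3 ± 7.50), mlc-1 (75.3 ± 5.61) and lev-11 (72.0 ± 6.68) overlapped as neighbours, followed by unc-15 (32.6 ± 1.94), unc-54 (22.6 ± 2.33) and myo-3 (1.79 ± 0.21), while myo-1 (0.105 ± 0.044) and myo-2 (0.0711 ± 0.011) overlapped again. With the longest transcript as the length, a choice made after the data were seen, the means of both groups had the order mlc-2, act-4, mlc-3, lev-11, mlc-1, unc-15, unc-54, myo-3, myo-1 and myo-2. In xpf-1, mlc-2 (253.9 ± 6.66 CPM per kilobase) and act-4 (253.5 ± 17.9) overlapped by this length. The ranges of myo-1 and myo-2 overlapped in both groups. On that scale mlc-3 stood at 150.1 ± 7.98 and lev-11 at 102.7 ± 3.96 CPM per kilobase in xpf-1, against 172.8 ± 16.5 and 117.6 ± 10.9 CPM per kilobase in N2. The myosin light chain and actin messages were thus present at several times the level of the heavy chain messages per length in both groups.

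The thin filament partners of tropomyosin are the troponins, which bind calcium and hold tropomyosin in place. Of 10 listed, 9 were tested, 4 fell and 5 did not pass, with a median log2 fold change of -0.02. tnt-2, a troponin T, was 31.2 ± 3.05 CPM in xpf-1 and 43.8 ± 4.36 CPM in N2 (SD, n = 6 each), a log2 fold change of -0.49 (adjusted p = 5.64e-07). unc-27, the main body wall troponin I, was 87.3 ± 5.88 CPM in xpf-1 and 111.2 ± 7.73 CPM in N2, a log2 fold change of -0.35 (adjusted p = 1.53e-06). tnt-3 (-0.42, adjusted p = 0.00299) and tni-4 (-0.23, adjusted p = 0.00425) were the other 2 that fell. pat-10, the highest of the list in CPM, had 340.4 ± 14.9 CPM in xpf-1 and 346.3 ± 40.2 CPM in N2. It did not pass (-0.02, adjusted p = 0.731), and neither did mup-2 (0.05, adjusted p = 0.538).

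Among genes for proteins that assemble actin or regulate thin filaments, 6 of 15 rose, 2 fell and 7 did not pass (median -0.02). The 2 that fell were the calponin-like genes cpn-1, at 106.3 ± 9.37 CPM in xpf-1 and 171.5 ± 10.4 CPM in N2 (log2 fold change -0.69, adjusted p = 1.43e-12), and clik-1 (-0.52, adjusted p = 2.29e-08). Other calponin-like genes of the list rose or did not pass. Among the 6 that rose were the muscle profilin pfn-3 (0.57, adjusted p = 2.31e-07) and the formin fhod-1 (0.71, adjusted p = 2.52e-07), which promotes growth of thin filaments in body wall muscle. 

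Dense bodies and M-lines tie thin and thick filaments through integrin to the cell membrane. Of 13 dense body and integrin attachment genes, 9 rose, 2 fell and 2 did not pass, with a median of 0.21. The largest was unc-112, the worm kindlin, at 95.4 ± 2.37 CPM in xpf-1 and 58.4 ± 4.22 CPM in N2 (SD, n = 6 each), a log2 fold change of 0.71 ± 0.05 (SE, adjusted p = 3.59e-13), and it was 0.62 with the length trend removed. Its partners unc-97 (PINCH, 0.57, adjusted p = 6.43e-09) and pat-4 (integrin-linked kinase, 0.45, adjusted p = 2.91e-05) also rose. The 2 that fell were alp-1 (-0.25, adjusted p = 0.00344) and dim-1 (-0.24, adjusted p = 0.000717). With the length trend removed 6 of the 13 were higher and 4 lower. Those 4 were alp-1 (-0.53), deb-1 (-0.33), dim-1 (-0.30) and zyx-1 (-0.23).

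Of 9 M-line and giant sarcomere genes, 5 rose and 4 did not pass, with a median of 0.39. The giant kinase unc-22 (twitchin) had a log2 fold change of 0.60 (adjusted p = 0.000573) and the M-line kinase unc-82 had 0.41 (adjusted p = 0.000446). These are long genes. With the length trend removed the list held 1 higher and 1 lower gene with a median of -0.17, unc-22 stood at -0.17 (adjusted p = 0.241), and unc-89 (obscurin) reversed, at 0.41 before (adjusted p = 0.00346) and -0.39 after (adjusted p = 0.00277). unc-98, an M-line protein with a short message, kept its rise, at 0.39 before (adjusted p = 0.000132) and 0.42 after (adjusted p = 2.04e-05).

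**Figure D5:**
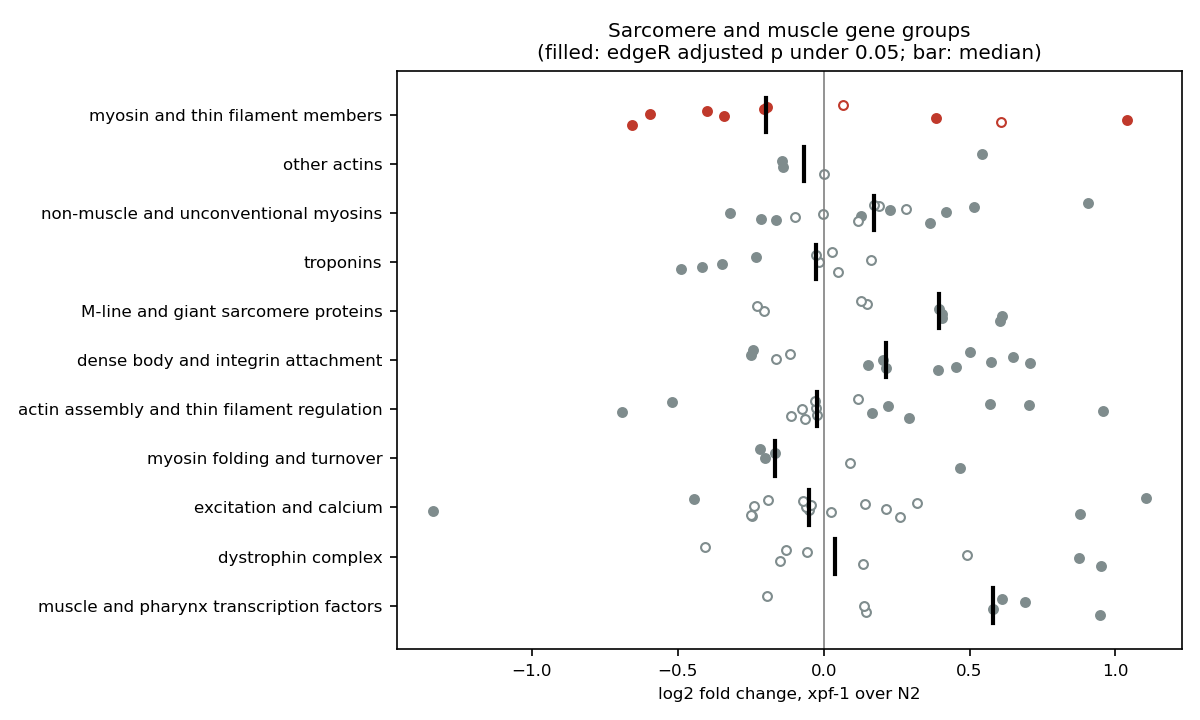
Log2 fold change (xpf-1 over N2) of every tested gene in the sarcomere gene set and in the other muscle gene lists, 1 point per gene, with filled points for an adjusted p under 0.05 and a line at each list's median. The sarcomere genes and troponins hold mainly filled points below 0 or open points. The dense body list (9 of 13) and the M-line list (5 of 9) hold mainly filled points above 0. With the length trend removed (not drawn), the dense body list held 6 higher and 4 lower genes. The M-line list then held 1 higher and 1 lower.

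Myosin heads fold only with help from chaperones. Of 5 folding and turnover genes, 1 rose, 3 fell and 1 did not pass, with a median of -0.17. The one that rose was unc-45, the dedicated chaperone of myosin, at 66.1 ± 3.09 CPM in xpf-1 and 47.8 ± 5.58 CPM in N2 (SD, n = 6 each), with non-overlapping ranges and a log2 fold change of 0.47 ± 0.07 (SE, adjusted p = 2.31e-07), and 0.33 with the length trend removed (adjusted p = 1.38e-06). unc-45 thus moved opposite to unc-54. The ubiquitin ligases chn-1 (-0.22, adjusted p = 0.000111) and ufd-2 (-0.17, adjusted p = 0.00791), which in C. elegans turn over UNC-45 protein, and the co-chaperone sti-1 (-0.20, adjusted p = 0.00137) fell. The call of ufd-2 was lost with library totals (0.142) and upper quartile scaling (0.125), under each of which 2 of the 5 genes rose and 2 fell.

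Of 17 genes of excitation and calcium handling, 2 rose, 3 fell and 12 did not pass, with a median of -0.05. With library totals or upper quartile scaling 3 rose and 2 fell, with medians of 0.02. Calsequestrin, csq-1, the calcium buffer of the sarcoplasmic reticulum, was 32.9 ± 2.35 CPM in xpf-1 and 83.4 ± 7.14 CPM in N2 (SD, n = 6 each), a log2 fold change of -1.34 ± 0.06 (SE, adjusted p = 4.9e-18). The calcium release channel unc-68 (ryanodine receptor, 0.88, adjusted p = 1.63e-08) and the potassium channel slo-1 (1.11, adjusted p = 1.93e-08) rose. unc-68 is a very long gene and stood at 0.21 with the length trend removed (adjusted p = 0.0303). Of 8 dystrophin complex genes 2 rose and 6 did not pass, with a median of 0.04. They were dys-1, the worm dystrophin (0.95, and 0.39 with the length trend removed), and stn-2 (0.87).

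Of 10 transcription factors of muscle and pharynx, 7 were tested, 4 rose and 3 did not pass, with a median of 0.58. hlh-1, the worm MyoD, was 2.66 ± 0.16 CPM in xpf-1 and 1.38 ± 0.36 CPM in N2 (SD, n = 6 each), a log2 fold change of 0.95 ± 0.20 (SE, adjusted p = 0.000108). tbx-2 (0.61), hnd-1 (0.58) and pha-4 (0.69) were the other 3 that rose.

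Of 4 other actins, the intestinal actin act-5 rose (54.02 ± 8.51 CPM in xpf-1 and 37.1 ± 5.39 CPM in N2, log2 fold change 0.54, adjusted p = 0.000555). Of 15 non-muscle and unconventional myosin genes, 6 rose, 3 fell and 6 did not pass, with a median of 0.17, and 2 rose and 4 fell with the length trend removed. The non-muscle heavy chain nmy-1 had a log2 fold change of 0.36 (adjusted p = 2.06e-07) and stood at 0.01 with the length trend removed (adjusted p = 0.89). nmy-1 has 6384 bases, close to the length of myo-3, which had 0.39 and 0.04 on the same scales. Not all genes of this length moved alike. hum-2, with 6085 bases, fell, at -0.32 (adjusted p = 3.61e-05) and -0.65 with the length trend removed (adjusted p = 2.24e-14). The non-muscle essential light chain mlc-5 fell (-0.21, adjusted p = 0.000134).

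Markers of other tissues also differed between the groups, and their part in the values of the sarcomere genes was not tested. The 24 germline and oocyte markers summed to 3387 to 3667 CPM in xpf-1 and 6046 to 6856 CPM in N2, with 22 of 24 called lower, and 3 of 5 gonad sheath markers fell (274.2 to 299.9 CPM summed in xpf-1, 356.2 to 406.9 CPM in N2). The sheath is itself contractile and lies outside the body wall. Of 11 intestine markers 4 fell and 2 rose (854 to 1298 CPM in xpf-1, 1184 to 1375 CPM in N2), while with library totals or upper quartile scaling 2 fell and 3 rose. Of 7 tested hypodermis markers 3 fell and 3 rose (353.6 to 378.3 CPM in xpf-1, 387.5 to 421.5 CPM in N2). Of 12 neuron markers 5 rose (432.6 to 455.4 CPM in xpf-1, 404.2 to 437.6 CPM in N2). The 5 tested embryo markers held 2 that fell and 1 that rose (78.4 to 87.8 CPM in xpf-1, 89.1 to 96.5 CPM in N2), and the 3 tested pharyngeal gland markers held 1 of each (7.94 to 11.8 CPM in xpf-1, 7.87 to 10.6 CPM in N2). Every marker found in the table had reads in at least 1 library.

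Across the 12 libraries, after each group's mean was taken away, the genes varied partly together. With the median profile of the 10 genes, unc-54 had a Pearson correlation of 0.86, unc-15 and lev-11 of 0.80, act-4 of 0.79 and mlc-3 of 0.75. mlc-1 had 0.28 and the sparsely counted myo-1 had -0.47. Each gene is part of the median it was compared with, and all share the same libraries. Among 9577 genes of at least 5 CPM, those whose profiles were most like that median were adss-1 (0.95), F21D5.3 (0.91), mac-1 (0.90), apl-1 (0.89) and epic-2 (0.88). Between the groups these 5 did not share a direction: epic-2 had a log2 fold change of -1.51 and apl-1 of 0.45, while adss-1 had 0.00.

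In the authors' deposited table, each of the 10 genes had the same sign of log2 fold change as in the fit used here. That table gave unc-54 -0.66, mlc-1 -0.60, myo-3 0.36 and act-4 0.05. The authors' deposited table gave myo-2 0.75 with an adjusted p of 0.0291, and myo-1 0.48 with 0.153.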

How the data were processed

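The tools CASAVA, HISAT2 (2.1.0) and, for counting, featureCounts (1.5.0-p3), and the build WBcel235, are named per the submitters' processing notes. The strand setting and the handling of multiply mapped reads are not stated there. The authors deposited raw read counts for 46726 genes, 20292 of them 0 in every library. Per the file headers, the authors also deposited FPKM values and size-factor normalised counts, a signal scale, neither of which was used in a test. Per the file headers, the authors' table holds a log2 fold change, an unadjusted and an adjusted p-value for every gene, given only where named.

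Counts were fitted with edgeR 4.0.16 in R 4.3.3: filterByExpr, TMM scaling and the robust quasi-likelihood test of xpf-1 against N2 over 14248 genes, with no covariate, Benjamini-Hochberg adjustment and a threshold of 0.05. The biological coefficient of variation was 9.62%. The number of libraries and reads limits precision, and intervals are at 95%. The length trend was fitted in each library by lowess (span 0.3) on log2 gene length. The fitted value was a gene's log2 CPM less its mean over all libraries, and the trend was removed as an offset. Profiles used log2 CPM with a prior count of 2. Ratios within libraries were tested by exact permutation, two-sided. The fit was tested on simulated data. The alternatives were DESeq2 1.42.0, limma-voom 3.58.1, other scalings, filters and thresholds, the replicate number as a block, subsets of replicates and each library left out.

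The members and lists were chosen with earlier results of these data known. Genes outside the 10 were named by a rule: up to 4 genes per list with the smallest adjusted p (a subset is printed), act-1 to act-3, and the 5 profiles most like the members' median. Outside this rule, alp-1, deb-1, dim-1, zyx-1, pat-10 and mup-2 were named as list genes that fell or did not pass. Of 187 context genes 186 matched a deposited or reference name.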

Additional observations from a re-analysis of the deposited data

Results flagged for a closer look

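In 3 of 30 groups of 6 libraries examined, 1 library stood apart from the other 5 by Dixon's test at the 95% level, which chance does in about 1 group in 20. All 3 were xpf-1 replicate 1. It had 115.8 CPM of unc-54, with a gap of 0.691 of the group's range, and 115.3 CPM of unc-15, with a gap of 0.663. Its log2 ratio of lev-11 to unc-54 was 1.845, the lowest of its group, with a gap of 0.658. That ratio uses the same unc-54 reads as the first flag. The ratios reuse genes already examined, so neither the 30 groups nor the 3 flags are independent. The same library had 40 reads of myo-2 and a summed intestine marker level of 1298 CPM, the highest among the xpf-1 libraries. Without it the log2 fold change was -0.73 for unc-54 (edgeR adjusted p = 2.9e-11) and -0.42 for unc-15 (1e-07).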

How the results depend on the processing

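The signs of the 10 log2 fold changes held under every alternative that gave a value (myo-1 and myo-2 dropped out at a minimum of 5 CPM). unc-54, mlc-1 and mlc-2 kept their calls under all but the test against a 1.5-fold change, at -1.02 to -0.46, -0.64 to -0.47 and -0.45 to -0.32. Counting N2 replicate 6 as a mutant ended the calls of mlc-3 (edgeR adjusted p = 0.115), lev-11 (0.123) and myo-2 (0.0697), and replicates 1 to 3 alone ended those of unc-15 (0.181), mlc-3 (0.0958) and lev-11 (0.131). The count of genes called higher was 1 with N2 replicate 6 as a mutant, at a threshold of 0.01, with at least 5 CPM in 6 libraries and in replicates 4 to 6 alone, and 0 with the length trend removed (with or without the replicate block) and against 1.5-fold. It was 3 with library totals and with upper quartile scaling, and leaving out 1 library gave 1 to 3. The count called lower was 5 with upper quartile scaling, 3 in replicates 1 to 3 alone and 0 against 1.5-fold. Against 1.5-fold, 980 of all genes were higher and 663 lower. The log2 ratio of myo-3 to unc-54 was 0.79 with N2 replicate 6 as a mutant, 1.05 under the replicate block, 1.03 in replicates 1 to 3 and 1.07 in replicates 4 to 6; unc-15 to unc-54 was 0.22, 0.31, 0.31 and 0.31, lev-11 to unc-54 0.37, 0.47, 0.38 and 0.56, and mlc-1 to mlc-2 -0.16, -0.20, -0.19 and -0.21 in the same order. None of these passed after adjustment (exact permutation p adjusted over 5 ratios between 0.0521 and 0.25); under the block the smallest unadjusted p is 0.03125, which passes only where 4 of the 5 ratios reach it, and with 3 libraries against 3 none can pass. myo-2 to myo-1 reversed to -0.48 in replicates 4 to 6, -0.06 without N2 replicate 3 and -0.18 without xpf-1 replicate 1 (-0.18 to 0.43 over the libraries left out). The causes were not tested. Same-numbered libraries showed no clear sign of deviating together (correlations -0.00312 to 0.12, 2 of 6 xpf-1 libraries closest to their own number). The labels do not say whether a number marks a shared batch, and a weak one could go unseen here. The block alone changed no call among the 10 genes, and over all genes it gave 4311 higher and 4225 lower. Scaling moved the median of all genes between 0.02 and 0.10 (log2). Depth limits myo-1 and myo-2.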
